A study of Mus musculus with 10 samples.

Results

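The genes described are 10 genes of interleukin-6 (IL-6) family signalling and its feedback control in mouse skeletal muscle: the receptors Il6ra, Il6st, Osmr and Lifr, the ligand gene Lif, the transcription factor gene Stat3 and the feedback inhibitor genes Socs1, Socs2, Socs3 and Cish. They were chosen by name from the 54232 genes of the deposited table, by a rule that uses no measured value. Earlier results of these data were known when the choice was made. RNA of the gastrocnemius, a calf muscle that the study's legend gives together with the neighbouring plantaris, was sequenced from 5 homozygous desmin knock-out mice (Des -/-) and 5 wild-type littermates (Des wt/wt) of the strain B6J.129Sv-Destm1Cba/Cscl at 3 months of age. The question of the comparison was how muscle gene expression differs when desmin, the main intermediate filament protein of muscle fibers, is lacking. The knock-out is constitutive, in every cell type, and the muscle was taken whole, so that fewer cells of a type and less RNA per cell cannot be told apart. The methods speak of pooled RNA, but every mouse has a column of its own in the table, and all columns entered as separate replicates (n = 5 per genotype throughout).

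Cytokines of the IL-6 family bind receptors most of which include Il6st, the shared signal-transducing chain, paired with a ligand-specific chain such as the product of Il6ra, Osmr or Lifr. The occupied receptor activates JAK kinases, which phosphorylate STAT transcription factors, STAT3 above all, and STAT3 in turn switches on Socs3, whose product blocks the receptor again. Cish and Socs2 are the corresponding feedback genes of growth hormone and other cytokines that signal through STAT5. In skeletal muscle the pathway is known from exercise, regeneration and wasting.

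Phosphorylated STAT dimers bind a short palindrome, TTCNNNGAA, which reads the same on both strands. Stretches of 30 bases around this motif from the windows at the start sites of Cish and Socs3 are shown because theirs were the windows, among these 10 genes, in which it was found. The capitals mark the motif.
Cish: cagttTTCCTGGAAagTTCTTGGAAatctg
Socs3: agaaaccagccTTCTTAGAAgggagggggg
The sequences are from RefSeq on GRCm38.p6. The stretch of Cish lies on the plus strand at chr9:107296654-107296683 and holds the motif 2 times, with the first bases at positions 1 and 12 counted from the RefSeq start site, inside the first exon of a GENCODE model of the gene. The stretch of Socs3 lies on the minus strand at chr11:117969502-117969531, and its motif begins at position -154, upstream of the RefSeq start site. The windows reach from 250 bases before the start to a total length of 300 bases, and 9 of the 10 genes had at least 1. The motif stood in 8.3% of all 32851 windows of mouse genes and in 2 of the 10 windows of these 9 genes, those of Cish and Socs3. Among the tested other genes of the pathway described further on, it stood in 5 of 59 windows, those of Igfals, Bcl6 and Steap4. The wider spacing TTCNNNNGAA stood in 6.95% of all windows and in 0 of these 10. Such a match describes the letters of the window and does not show a bound site.

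Values are on the rlog scale, a regularized log2 transformation that adjusts for library size and pulls the mice of a gene together, above all where reads are few. A difference in rlog thus understates the log2 fold change of counts, and the sequencing depth behind the values is unknown. Des, the targeted gene, had rlog values of 11.84 ± 0.06 (SD) in knock-out and 16.58 ± 0.67 in wild-type muscle, a difference of -4.73 (SE 0.25, adjusted p = 1.5e-07, limma). All 10 myofiber markers lay above the limit for testing, and 2 of them fell in knock-out muscle, as did 5.99% of all tested genes. Wild-type mouse 3 stood apart: its values summed to 1.48 times the median of all mice, compared with 0.949 to 1.06 times in the other 9, and its mean correlation with its genotype was 0.982, against 0.989 to 0.991 for the remaining wild-type mice. Results of the 10 genes that rest on this mouse are given with and without it.

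Of the 10 genes, 9 reached the expression limit (a mean rlog value of at least log2(10)) and Lif lay under it. None of the 9 passed an adjusted p under 0.05, that is 0 genes in limma with Benjamini-Hochberg adjustment over 14289 tested genes, of which 13.7% passed (7.7% higher and 5.99% lower in knock-out muscle). At an unadjusted p under 0.05, which 27.6% of tested genes had, the count was 1 of 9 (Cish). In the exact permutation test over all assignments of the 10 mice, at least 14.4% of all tested genes had a p under 0.05. That share had ranges without overlap, which give the smallest p of this test. Among the 9 genes Il6st alone had a p under 0.05. Differences of 7 genes were negative, that is lower in knock-out muscle, and those of 2 (Stat3 and Osmr) were positive, although the sign of Osmr turned under other scalings. Their median was -0.15, compared with -0.003 over all tested genes. The knock-out and wild-type ranges overlapped for all 9 genes, whereas 14.4% of all tested genes had ranges without overlap.

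**Figure D1:**
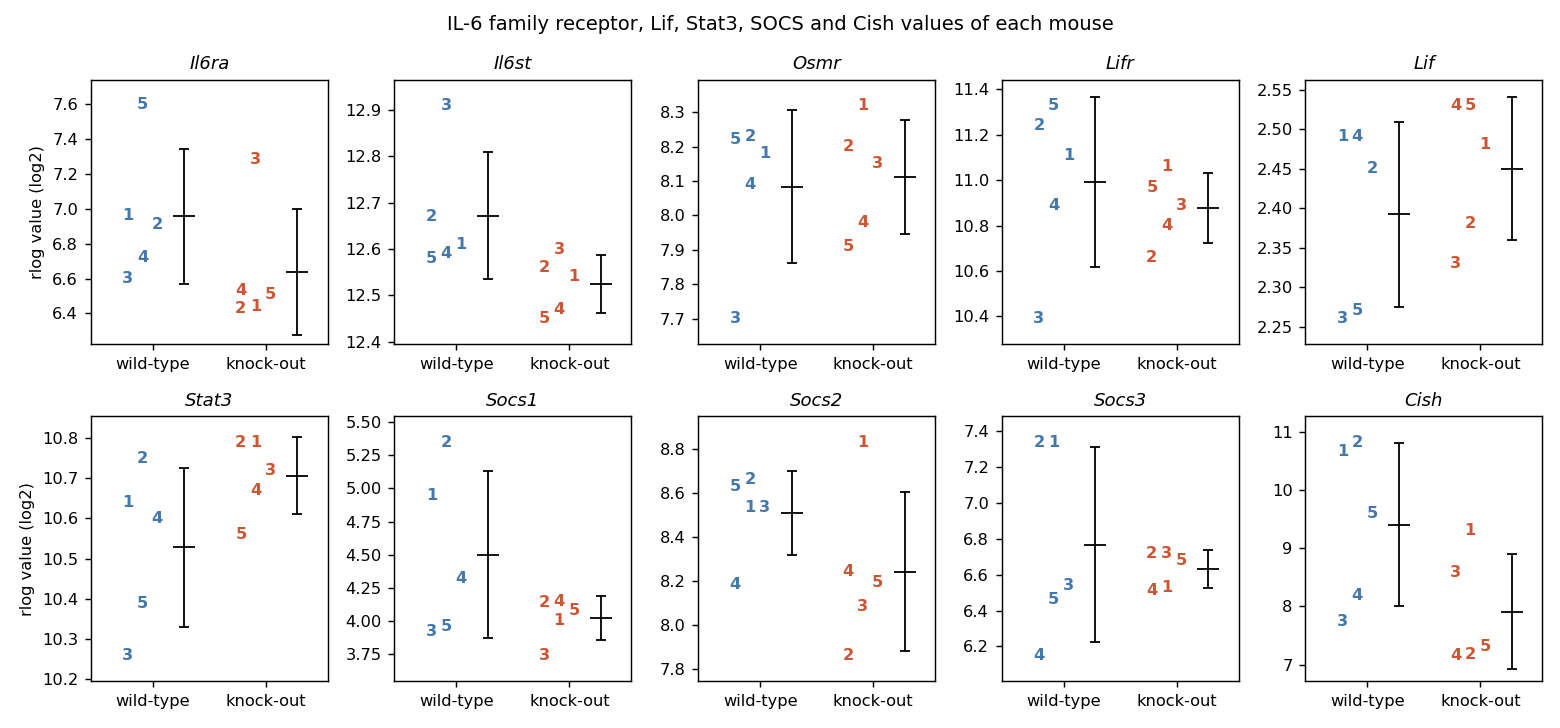
Rlog values (log2 scale, vertical axes, different for each gene) of the 10 genes in wild-type (blue) and desmin knock-out (orange) mice. Each digit is the number of a mouse and each bar the mean ± SD of 5 mice; the genotypes overlap in every panel, and wild-type mice 1 and 2 stand highest for Socs1, Socs3 and Cish.

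Among the receptors, Il6st (chr13:112464070-112510086, plus strand), the signal-transducing chain that most IL-6 family receptors share, was the most abundant per length and the least variable. Its rlog values were 12.54, 12.56, 12.60, 12.47 and 12.45 in knock-out mice 1 to 5. In wild-type mice 1 to 5 they were 12.61, 12.67, 12.91, 12.59 and 12.58. Thus 4 of 5 knock-out mice lay below all wild-type mice, and knock-out mouse 3 lay above wild-type mice 4 and 5. The difference was -0.15 (SE 0.09, 95% confidence interval -0.34 to 0.05, adjusted p = 0.311), and the exact permutation test of this gene alone gave p = 0.0238, without adjustment for the other genes. Wild-type mouse 3 was the highest of all. Without it the difference was -0.09 (95% interval -0.22 to 0.05, adjusted p = 0.386) and the exact permutation p was 0.0556.

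Il6ra (chr3:89864059-89913196, minus strand), which encodes the chain that binds IL-6 itself, had rlog values of 6.44, 6.43, 7.28, 6.53 and 6.51 in knock-out mice 1 to 5. Wild-type mice 1 to 5 had 6.96, 6.91, 6.60, 6.72 and 7.60. Again 4 of 5 knock-out mice lay below all wild-type mice, and knock-out mouse 3 stood apart from them above 4 of the 5 wild-type mice. The difference was -0.32 (SE 0.20, 95% interval -0.75 to 0.12, adjusted p = 0.339, exact permutation p = 0.246). It was -0.16 without wild-type mouse 5, the highest mouse, and -0.48 without knock-out mouse 3, and it did not pass in either case (adjusted p = 0.583 and 0.117). An exon of Il6ra shares 242 bases with a gene on the opposite strand, Gm42809, whose mean rlog value was -0.91.

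The neighbouring receptor genes Lifr and Osmr on chromosome 15, for leukemia inhibitory factor and oncostatin M, had intervals of the difference that included 0. Lifr (chr15:7090614-7197489, plus strand) ranged from 10.66 to 11.06 in knock-out and from 10.39 to 11.33 in wild-type mice, with a difference of -0.11 (95% interval -0.45 to 0.22, adjusted p = 0.673). Osmr (chr15:6813577-6874969, minus strand) ranged from 7.91 to 8.32 and from 7.70 to 8.23, with a difference of 0.03 (95% interval -0.24 to 0.30, adjusted p = 0.909). For both genes wild-type mouse 3 had the lowest value of all 10 mice, 10.39 for Lifr and 7.70 for Osmr. Without this mouse Lifr differed by -0.27 (95% interval -0.48 to -0.05, adjusted p = 0.0942), while Osmr differed by -0.07 (95% interval -0.28 to 0.14, adjusted p = 0.704), a turn of its sign.

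Lif (chr11:4257557-4272514, plus strand), the gene of the ligand of Lifr, was close to the lower end of the table. Its values ran from 2.33 to 2.53 in knock-out and from 2.26 to 2.49 in wild-type muscle. In the fit without an expression limit the difference was 0.06 (95% interval -0.13 to 0.25, adjusted p = 0.793). Values this low are held close to the gene's mean by the rlog transformation, so a difference could hardly be detected.

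Stat3 (chr11:100885098-100939540, minus strand), the main transcription factor downstream of Il6st, had rlog values of 10.79, 10.79, 10.72, 10.67 and 10.56 in knock-out mice 1 to 5. Those of wild-type mice 1 to 5 were 10.64, 10.75, 10.26, 10.60 and 10.39. Only knock-out mice 1 and 2 lay above all wild-type mice. Wild-type mouse 3 was the lowest. The difference was 0.18 (SE 0.10, 95% interval -0.04 to 0.40, adjusted p = 0.289, exact permutation p = 0.127). Without wild-type mouse 3 it was 0.11 (95% interval -0.07 to 0.29, adjusted p = 0.415). Exons of Stat3 and of Stat5a on the opposite strand share 72 bases.

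The widest spread of all was that of Cish (chr9:107296026-107302784, plus strand), whose product binds activated cytokine receptors and dampens STAT5. Its rlog values were 9.31, 7.18, 8.59, 7.16 and 7.32 in knock-out mice 1 to 5. They were 10.66, 10.83, 7.75, 8.19 and 9.60 in wild-type mice 1 to 5. Knock-out mice 2, 4 and 5 lay below all wild-type mice, while knock-out mice 1 and 3 lay above wild-type mice 3 and 4. Values spanned 3.67 over all mice, 2.15 within the knock-out and 3.08 within the wild-type group. The pooled SD within the genotypes was 1.21, and only 2 of the 14289 tested genes had a larger one.

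The Cish means were 7.91 ± 0.98 (SD) in knock-out and 9.41 ± 1.40 in wild-type muscle. The difference of -1.49 (SE 0.60) had a 95% interval of -2.78 to -0.21, an adjusted p of 0.121 in limma and an exact permutation p of 0.0873. Cish thus did not pass in the fit of all mice, and this depended on wild-type mouse 3, the lowest wild-type mouse. Without it the wild-type mean was 9.82 ± 1.21 (n = 4), the difference was -1.91 (95% interval -3.08 to -0.74), the adjusted p in limma was 0.0277 and the exact permutation p over 126 assignments was 0.0476. Without wild-type mouse 3, then, 1 of the 9 genes passed instead of 0, while 17.5% of all tested genes passed in the same fit (2496 of 14289). Without wild-type mouse 1 or 2, the 2 highest mice, Cish differed by -1.18 or -1.14 and did not pass (adjusted p = 0.212 and 0.234 in limma). Exons of Cish share 261 bases with Gm17040 and 479 bases with Gm17041, both on the opposite strand, out of an exon length of 6419 bases. The authors' counting setting for strand is not given in the sources used here, so reads of these overlaps cannot be assigned.

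The 3 SOCS genes are inhibitors that bind activated JAK kinases or receptor chains. Socs1 (chr16:10782240-10785536, minus strand) had rlog values of 4.0, 4.14, 3.74, 4.15 and 4.08 in knock-out mice 1 to 5 and of 4.95, 5.35, 3.92, 4.32 and 3.96 in wild-type mice 1 to 5. Socs3 (chr11:117966079-117970047, minus strand) had 6.53, 6.72, 6.72, 6.51 and 6.68 in knock-out and 7.34, 7.34, 6.54, 6.15 and 6.46 in wild-type mice. Both genes were tightly grouped in knock-out muscle and scattered in wild-type muscle: the range was 0.41 and 1.43 for Socs1, and 0.22 and 1.19 for Socs3. This was also so of the whole libraries, whose root mean square deviation from the genotype mean was 0.117 to 0.177 in knock-out and 0.193 to 0.406 in wild-type mice. Whether the spread itself differed between the genotypes was not tested. The difference was -0.48 (SE 0.24, 95% interval -1.0 to 0.05, adjusted p = 0.227, exact permutation p = 0.183) for Socs1. It was -0.26 without wild-type mouse 2 (adjusted p = 0.421) and -0.62 without wild-type mouse 3 (95% interval -1.12 to -0.12, adjusted p = 0.0883). For Socs3 it was -0.13 (SE 0.21, 95% interval -0.59 to 0.32, adjusted p = 0.717), and it was 0.01 without wild-type mouse 1 or without wild-type mouse 2.

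Socs2 (chr10:95385362-95417180, minus strand), a feedback gene of growth hormone, showed another order of the mice. Knock-out mice 1 to 5 had rlog values of 8.83, 7.86, 8.08, 8.24 and 8.19, and wild-type mice 1 to 5 had 8.53, 8.66, 8.53, 8.18 and 8.63. Knock-out mouse 1 was the highest of all 10 mice, and the other 4 knock-out mice lay below 4 of the 5 wild-type mice. The difference was -0.27 (SE 0.16, 95% interval -0.61 to 0.08, adjusted p = 0.314, exact permutation p = 0.175). Without knock-out mouse 1 it was -0.41 (adjusted p = 0.0631), and without knock-out mouse 2 it was -0.17 (adjusted p = 0.558).

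Wild-type mice 1 and 2 had the 2 highest values of all 10 mice for Cish, Socs1 and Socs3, that is for 3 of 9 genes. The same 2 mice led in 5.35% of all tested genes (765 of 14289). This pair was picked after its lead for these 3 genes was seen, so the share does not test that lead. Among the 52 tested other genes of the pathway, wild-type mice 1 and 2 led for 3, namely Jak1, Jak2 and Myc. They did not lead for Socs2, where knock-out mouse 1 was first and wild-type mouse 2 second.

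The genes whose values followed a member most closely over the 10 mice were sought among 14280 other tested genes for 1 receptor and 2 inhibitors. For Cish these were Utp6 (Pearson's r 0.98, Spearman's rho 0.93), Ubn1 (0.96 and 0.92) and Dnajc13 (0.95 and 0.95). Without the mice farthest from the median of Cish, wild-type mice 1 and 2, r was still 0.90 to 0.95 for these genes. For Socs3 the closest were Ric1 (r 0.93, rho 0.62), Cpox (0.93 and 0.72) and Csrnp1 (0.92 and 0.82), and r dropped to between 0.61 and 0.73 without the same 2 mice. Osmr was followed by Rtf1 (0.94 and 0.90), Fam168b (0.94 and 0.77) and Cep85 (0.93 and 0.76), and r was 0.71 to 0.80 without wild-type mouse 3 and knock-out mouse 5. These coefficients are the highest of many and are given as a description. All of them pool both genotypes and share the same libraries.

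Levels can be compared between genes only per length. The rlog value minus log2 of the exon length in kb ordered the genes in wild-type muscle as Il6st (9.20), Lifr (7.56), Stat3 (7.28), Cish (6.72), Socs2 (5.25), Socs3 (5.23), Osmr (4.49), Il6ra (3.85), Socs1 (2.96) and Lif (0.27). Il6st lay above the next gene, and Socs1 above Lif, without overlap between the wild-type mice. All other neighbours in this order overlapped. The exon length joins the exons of all annotated models of a gene, and for Cish it covers most of the gene (6419 bases). The level of Cish per length, and its place in the order, may therefore be understated. The mean of Cish in knock-out muscle, 5.23 per kb on this log2 scale, stood between those of Stat3 (7.45) and Socs3 (5.10).

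**Figure D2:**
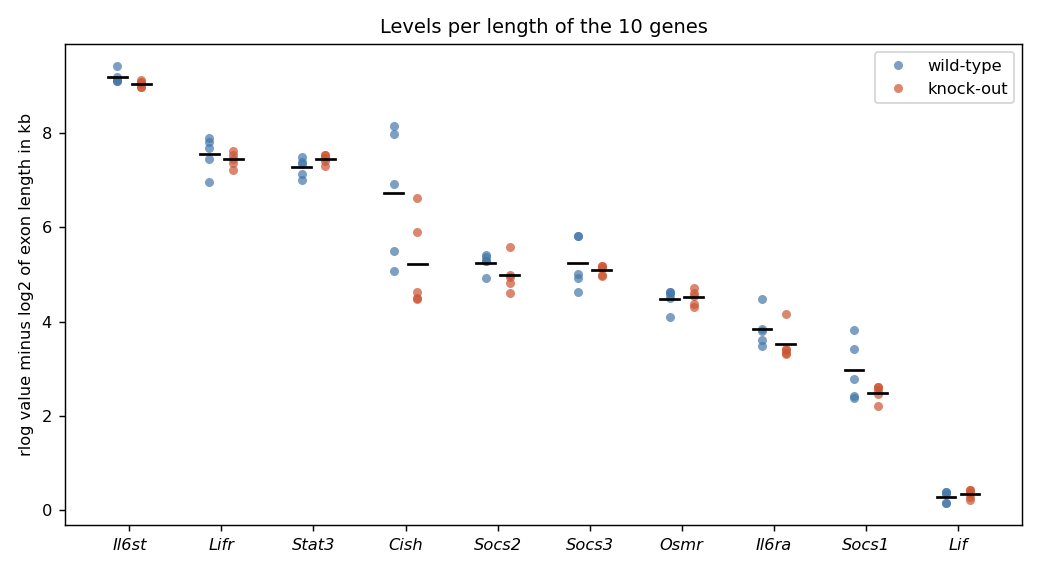
Levels per length (rlog value minus log2 of the exon length in kb, vertical axis) of the 10 genes in wild-type (blue) and desmin knock-out (orange) mice. Each point is 1 mouse and each bar the mean of 5; Il6st is highest at 9.20 in wild-type muscle, Lif lowest at 0.27, and Cish has the widest spread.

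The other genes of the pathway were examined in 6 lists with 68 genes, of which 52 were tested. In limma, 10 of these (19.2%) had an adjusted p under 0.05, where 13.7% of all tested genes did. In knock-out muscle 3 (5.77%) were higher and 7 (13.5%) lower, compared with 7.7% and 5.99% of all tested genes. The median difference over the 52 genes was 0.03. At an unadjusted p under 0.05 there were 20 genes (38.5%), compared with 27.6% of all tested genes. The lists were chosen with earlier results known, and no test of the lists was made.

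**Figure D3:**
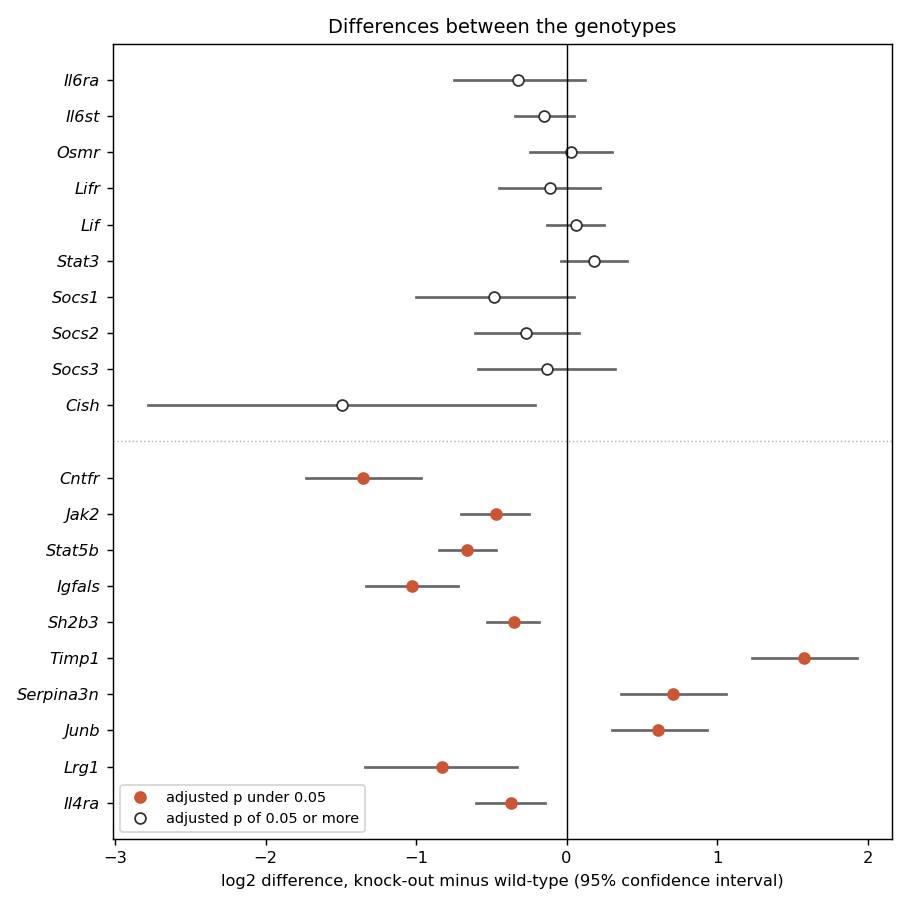
Log2 differences between desmin knock-out and wild-type muscle (horizontal axis, negative where knock-out is lower) with 95% confidence intervals from limma. The 10 genes chosen by name stand above the dotted line and the 10 other pathway genes with an adjusted p under 0.05 below it; among the upper genes only the interval of Cish, -2.78 to -0.21, leaves out 0.

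Of the 11 ligand genes of the family, 3 were tested and 0 passed in limma. At an unadjusted p under 0.05 there was 1, Clcf1, a cytokine that signals through Cntfr. Clcf1 had rlog values of 4.41 ± 0.18 in knock-out and 4.12 ± 0.21 in wild-type muscle, with a difference of 0.28 (95% interval 0.00 to 0.57, adjusted p = 0.181). Il6 itself lay under the expression limit, with rlog values of 2.12 ± 0.22 and 2.13 ± 0.20.

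Among the 5 other receptor genes, 2 were tested and 1 fell. Cntfr (chr4:41657498-41697089, minus strand), the receptor chain for ciliary neurotrophic factor that joins Il6st and Lifr, had rlog values of 7.03, 6.88, 7.09, 6.83 and 6.82 in knock-out mice 1 to 5. In wild-type mice 1 to 5 they were 7.86, 8.30, 8.83, 7.84 and 8.57. All 5 knock-out mice lay below all 5 wild-type mice. The difference was -1.35 (SE 0.18, 95% interval -1.73 to -0.97, adjusted p = 1.9e-04), and Cntfr passed in each of 19 alternative settings.

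Of the 9 tested JAK kinase and other STAT genes, 2 fell and 7 did not pass. Stat5b (chr11:100780731-100850724, minus strand), which carries growth hormone signals, had rlog values of 12.04, 12.17, 12.32, 12.14 and 12.13 in knock-out mice 1 to 5. In wild-type mice 1 to 5 they were 12.85, 12.66, 12.83, 12.80 and 12.96. The groups were fully apart, with a difference of -0.66 (SE 0.09, adjusted p = 2.1e-04). Its neighbour and close relative Stat5a, named after its values were seen, had 8.72 ± 0.14 and 8.60 ± 0.26 (difference 0.12, 95% interval -0.15 to 0.39, adjusted p = 0.578). Jak2, the kinase bound to the growth hormone receptor, had 10.97 ± 0.10 in knock-out and 11.44 ± 0.20 in wild-type muscle, again without overlap (difference -0.47, SE 0.10, adjusted p = 0.00844). Both Stat5b and Jak2 passed in each of 19 alternative settings.

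In the list of the growth hormone and STAT5 axis, 7 genes were tested and 1 fell. Igfals, which encodes a partner protein of insulin-like growth factors and is known in liver as a growth hormone target, had 5.94 ± 0.15 in knock-out and 6.96 ± 0.29 in wild-type muscle. The genotypes did not overlap (difference -1.03, SE 0.14, adjusted p = 2.8e-04). In the same list the growth hormone receptor gene Ghr had 12.17 ± 0.05 and 12.28 ± 0.29 (difference -0.11, adjusted p = 0.619). Igf1, which encodes an insulin-like growth factor, had 9.86 ± 0.26 and 9.80 ± 0.20 (difference 0.06, adjusted p = 0.795). Neither passed, and both were named after their values were seen. Of the 12 other inhibitor genes, 1 fell, namely Sh2b3, an adaptor that restrains JAK2, with 8.98 ± 0.05 and 9.34 ± 0.09 (difference -0.35, SE 0.08, adjusted p = 0.0113). Its call was lost with the replicate number as a block (adjusted p = 0.0596) and with immediate-early genes as a covariate (adjusted p = 0.101).

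Of 19 tested genes known as STAT3 targets, 3 rose, 2 fell and 14 did not pass, with a median difference of 0.12. Timp1, an inhibitor of matrix metalloproteinases, had the largest difference of the list. Its rlog values were 7.66, 7.78, 7.34, 7.61 and 7.57 in knock-out mice 1 to 5 and 5.72, 6.18, 6.48, 5.58 and 6.11 in wild-type mice 1 to 5, without overlap (difference 1.58, SE 0.16, adjusted p = 2.4e-05). Serpina3n, an acute-phase protease inhibitor, rose by 0.71 (SE 0.16, adjusted p = 0.0106), with 4 of 5 knock-out mice above all wild-type mice. The AP-1 gene Junb rose by 0.61 (SE 0.15, adjusted p = 0.0134), with all 5 knock-out mice above the wild-type mice.

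Lrg1, a secreted acute-phase glycoprotein, changed in the other direction, with 7.57 ± 0.37 in knock-out and 8.41 ± 0.52 in wild-type muscle (difference -0.83, SE 0.24, adjusted p = 0.0318). Wild-type mouse 3 was the highest for Lrg1 (9.27), and without it the difference was -0.62 (adjusted p = 0.027). The fifth gene of this list, Il4ra, the interleukin-4 receptor chain, was named after its values were seen (7.62 ± 0.18 and 7.99 ± 0.09, difference -0.37, SE 0.11, adjusted p = 0.0362). Lrg1 and Il4ra lost their call in 9 and 8 of 19 alternative settings. Among these were the settings without knock-out mouse 2 (adjusted p = 0.0712 and 0.0858), without knock-out mouse 5 (0.08 and 0.0759), without wild-type mouse 2 (0.0512 and 0.0713) and without wild-type mouse 4 (0.0639 and 0.0606). Lrg1 was also lost without knock-out mouse 1 (0.0825) or 4 (0.0748), and Il4ra without knock-out mouse 3 (0.0877) or wild-type mouse 1 (0.0739). The targets thus held both risen and fallen genes. On the opposite strand, exons of Sh2b3 share 99 bases with Atxn2, those of Junb 173 bases with Prdx2 and those of Il4ra 571 bases with Gm44876.

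**Figure D4:**
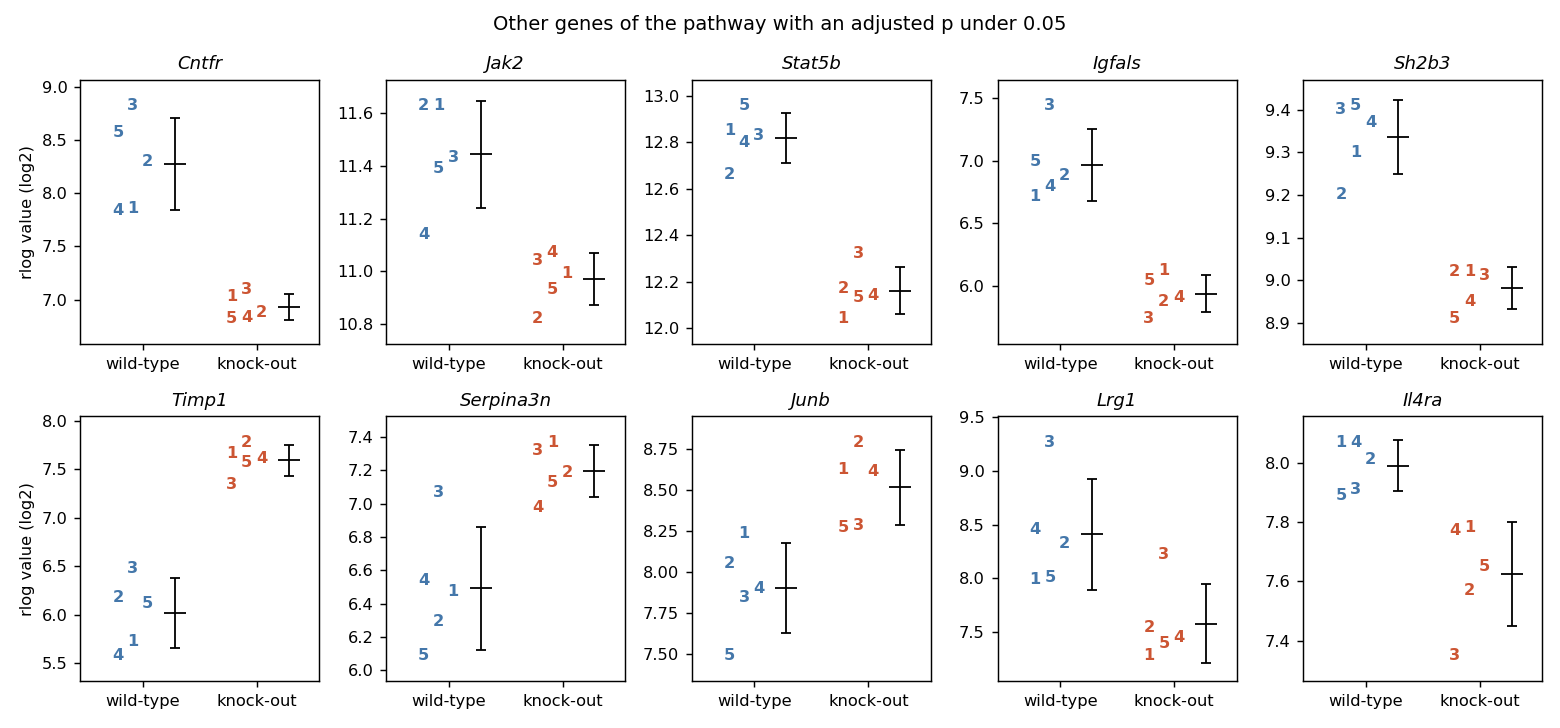
Rlog values (log2 scale, vertical axes, different for each gene) of the 10 other pathway genes with an adjusted p under 0.05 in wild-type (blue) and desmin knock-out (orange) mice, with digits for mouse numbers and bars for the mean ± SD of 5 mice. Timp1, Serpina3n and Junb are higher in knock-out muscle and the other 7 lower; Serpina3n and Lrg1 overlap between the genotypes.

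Some marker genes of other cells differed between the genotypes beside these genes. The counts below stand beside 7.7% of all tested genes that rose and 5.99% that fell. Of 10 endothelial markers 5 fell, and their summed level (2 to the power of the rlog values) was 4993 to 6391 in knock-out and 6313 to 7920 in wild-type mice. Of 10 macrophage markers 0 passed in limma, with 0 at an unadjusted p under 0.05, and their sums were 2287 to 3135 and 2059 to 2930. Of 8 neutrophil markers 3 were tested and 2 fell, with sums of 40.74 to 53.43 and 59.31 to 70.73 and Camp at 0 in all mice. The fallen markers, S100a9 (2.84 and 4.02) and Mmp9 (3.76 and 4.39), had low values. Only 0.98% and 6.9% of tested genes had a lower mean. The third tested marker, S100a8, did not pass (difference 0.02, adjusted p = 0.959 in limma). Of 8 T cell markers 0 reached the expression limit. Of 10 fibroblast markers 3 rose and 1 fell. Of 8 satellite cell markers 1 rose, and of 5 tested erythroid markers 2 fell, with sums of 2877 to 4352 in knock-out and 4097 to 10610 in wild-type mice. For the fallen erythroid markers wild-type mouse 3 was the highest of all mice. It had 12.44 for Hbb-bs (other wild-type mice 11.23 to 11.35) and 8.28 for Alas2 (6.77 to 7.08). All knock-out mice lay below all wild-type mice for both. Among 8 Schwann cell markers, 8 adipocyte markers and 4 Y-linked transcripts 0 passed in limma, with 0 at an unadjusted p under 0.05.

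Genes of early activation also moved: of 12 immediate-early genes 5 rose and 0 fell, with a median difference of 0.50. Of all tested genes 7.7% rose and 5.99% fell. For some of the 12, wild-type mice 1 and 2, the highest for Cish, Socs1 and Socs3, stood above wild-type mice 3 to 5. Atf3 had 12.44 and 11.66 against 8.92 to 9.44, and Egr1 10.15 and 9.05 against 7.21 to 7.49. Others, such as Dusp1 (11.19 and 11.49 against 11.33 to 11.69), did not show this. With the mean of the 12 immediate-early genes as a covariate, 4 of the 10 pathway genes lost their call. They were Junb (0.40, adjusted p = 0.165), Sh2b3 (-0.30, adjusted p = 0.101), Lrg1 (-0.59, adjusted p = 0.264) and Il4ra (-0.40, adjusted p = 0.103). In the same fit Cish differed by -2.51 (adjusted p = 0.0156), Socs1 by -0.95 (adjusted p = 0.0119) and Socs3 by -0.58 (adjusted p = 0.0428). These 3 of the 9 genes then passed, compared with 7.26% of all tested genes. The covariate holds 5 genes that rose in knock-out muscle, so it overlaps with genotype. The AP-1 gene Junb is of the same kind as Fos in the covariate, so the loss of its call says little. Calls lost or gained in this fit cannot separate early activation from genotype. With the mean of the 4 Y-linked transcripts as a covariate, 2 of the 9 passed, Cish (-2.19, adjusted p = 0.00637) and Socs1 (-0.73, adjusted p = 0.0316), compared with 14.6% of all tested genes. Every mouse had these transcripts (Ddx3y from 10.61 to 11.96), so this covariate does not separate the sexes. Uty was lowest in wild-type mice 3 (8.03) and 4 (8.70), with 9.34 to 9.93 in the other mice. The part of the cell type markers in the results was not tested.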

How the data were processed

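Polyadenylated RNA of 10 mouse muscles was sequenced after a stranded library preparation. The authors trimmed reads with cutadapt 2.5, aligned them with STAR 2.5.4a, counted them with featureCounts (Subread 1.6.1) on GRCm38 genes and used DESeq2, per the submitters' processing notes. The authors deposited rlog values of DESeq2, a log2 scale with adjustment for library size and shrinkage within each gene, so depth per mouse and counting error are unknown. The 10 sample columns were all used, and 0 columns were left unmapped.

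Symbols, positions and exon lengths came from GENCODE M21 (54165 of 54232 genes matched). Genes with a mean rlog value of at least log2(10) entered a two-sided limma test (limma 3.58.1, R 4.3.3) with a mean-dependent prior variance, a threshold of 0.05 and Benjamini-Hochberg adjusted p-values for 14289 genes, after a check on data with planted changes. Exact permutation tests went through all assignments of the mice, are two-sided and cannot go below p = 0.00794 with 5 mice per genotype. Spearman's rho was computed with scipy 1.17.1. The labels call the mice biological replicates.

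The 10 genes, the lists and the tests were chosen with earlier results of these data known. Genes named were the 10 genes, Des, in each pathway list up to 4 genes that passed (or the one with the smallest adjusted p), and the 3 genes most correlated with Osmr, Socs3 and Cish. Stat5a, Il4ra, Il6, Jak1, Myc, Ghr and Igf1 were named after their values were seen. So were the markers S100a8, S100a9, Mmp9, Hbb-bs, Alas2, Ddx3y and Uty. Alternatives were other expression limits, quantile normalization, median centring, sample weights, a single prior variance, a replicate block, 2 covariates, an adjusted p under 0.01 and leaving out each mouse.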

Additional observations from a re-analysis of the deposited data

Results flagged for a closer look

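Within a genotype, the highest or lowest mouse stood far from the other 4 (a gap above 0.71 of the whole range) in 6 of 42 groups examined, where chance gives about 2.1. In 3 of these the mouse was wild-type mouse 3. It had a Des rlog value of 17.74 (nearest mouse 16.55), the highest Il6st value of 12.91 (nearest 12.67) and the lowest Osmr value of 7.70 (nearest 8.09). In 2 cases it was knock-out mouse 3, with the highest knock-out values of Il6ra (7.28, nearest 6.53) and Lrg1 (8.22, nearest 7.54). The last was wild-type mouse 4, with the lowest wild-type value of Socs2 (8.18, nearest 8.53).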

How the results depend on the processing

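Of the 9 tested genes chosen by name, 0 passed by default. With limma's sample weights, under which 29.5% of all tested genes passed, 6 passed, all lower in knock-out muscle: Cish (-2.83, adjusted p = 4.7e-05), Socs1 (-0.83), Socs3 (-0.52), Il6ra (-0.44), Socs2 (-0.35) and Lifr (-0.30). These weights counted wild-type mice 1 to 5 with 1.77, 2.19, 0.1, 0.275 and 0.793. Knock-out mice 1 to 5 counted with 1.02, 0.949, 0.899, 4.21 and 3.22. The wild-type mice with the largest weights, 1 and 2, were the 2 highest of all mice for Cish, Socs1 and Socs3. With the immediate-early covariate 3 passed and with the Y-linked covariate 2 (Cish -2.19, Socs1 -0.73). Leaving out single mice gave 0 to 1. The cause was not tested. The other pathway genes that passed went from 10 to 19 with sample weights (5 higher, 14 lower), 6 with the immediate-early covariate and 5 at an adjusted p under 0.01, and all tested genes from 1956 to 4220, 1037 and 994. Over all 19 alternatives Cish stayed between -2.83 and -1.14 (adjusted p from 4.7e-05 to 0.246). The sign of Osmr turned under median centring (-0.01), quantile normalization (-0.03), sample weights (-0.17), the Y-linked (-0.05) and the immediate-early covariate (-0.09), and ran from -0.07 to 0.08 with single mice left out. Socs3 ran from -0.29 to 0.01 in the same way. Median centring and quantile normalization moved the median of all genes by -0.042 and -0.018. With the replicate number as a block, 0 of the 9 genes, 9 other pathway genes and 1579 of all tested genes passed. Sh2b3 (adjusted p = 0.0596) and Il4ra (adjusted p = 0.0717) were lost in the replicate block. The adjusted p of Lrg1 went from 0.0318 to 0.00115 and that of Cish from 0.121 to 0.0576. Deviations of same-numbered mice from their genotype means had correlations from -0.219 to 0.067 over all tested genes. No knock-out mouse correlated best with the wild-type mouse of its number. Whether the numbers stand for a shared litter or batch cannot be told from this.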
